A study of Mus musculus with 2 samples.

Results

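The genes described here are 9 transcription factor genes that lay out the early telencephalon: the homeobox genes Pax6, Emx1, Emx2, Lhx2, Otx1 and Otx2 and the orphan nuclear receptor genes Nr2f1, Nr2f2 and Nr2e1. They were taken by symbol from a table of 18510 genes, and all 9 are in it. The RNA came from cultured neural stem cells, taken at embryonic day 12 from brains of CD-1 mice, grown for 5 days in proliferation medium and infected with lentivirus. The virus carried either an H3.3 knockdown plasmid or a control plasmid, so the groups are H3.3 knockdown and control, with 1 library each. Histone H3.3 is the H3 variant that can enter chromatin outside of DNA replication. The labels name embryonic brain as the tissue and give no region, and the share of infected cells was not given in the sources used here.

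Early in development, the telencephalon is patterned by transcription factors expressed in gradients and in sharp domains of its progenitors. Pax6, Emx2, Lhx2 and Nr2f1 set cortical identity and the position of cortical areas, with Pax6 strongest rostrolaterally and Emx2 and Nr2f1 strongest caudally, and Pax6 also holds the border with the ventral domain marked by Gsx2. Nr2e1, also called Tlx, keeps neural stem cells dividing, Nr2f2 is prominent in the caudal ganglionic eminence, and Otx2 acts early in forebrain and midbrain and later in the choroid plexus.

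The H3.3 knockdown library held 8702855 counts and the control library 9184779. Levels are counts scaled to the library's total (CPM). A ratio is H3.3 knockdown over control, and the log2 ratio was taken with 0.5 count added. All intervals are 95% intervals for counting error only, since with 1 library a group no difference has a replicate check and no test of the condition can be made. H3f3b, one of the genes that encode H3.3, held 447 CPM in the H3.3 knockdown library and 821 CPM in the control library, and H3f3a, the other, held 135 CPM in the knockdown library and 209 CPM in the control. The 9 patterning genes, most of which mark the forebrain, summed to 726 CPM in the knockdown library and 948 CPM in the control, and the listed midbrain, hindbrain and spinal cord factors to 45.8 CPM in the knockdown library and 38.0 CPM in the control. Of these midbrain, hindbrain and spinal cord factors 11 reached a mean of 1 CPM, with a median log2 ratio of 0.42. By the rule of size given below, 3 of the 11 were higher and none lower. All 12 neural stem cell markers of the list, among them Nes, Sox2 and Vim, were present in both libraries.

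Both libraries expressed all 9 patterning genes, and 2 of the 9 differed 2-fold. Nr2e1 fell and Emx1 rose in the H3.3 knockdown library by a rule of size: the ratio had to be 2-fold or more, its interval had to exclude 1, and the mean level had to reach 1 CPM. By that rule 3.82% of 13989 tested genes were higher and 2.54% lower, 6.36% in all. Among the 10279 genes whose mean level reached 10 CPM, which include all 9, 3.34% passed it, and whether the 9 genes were called more often than others was not tested. The log2 ratio was below 0 for 6 of the 9 genes and above 0 for 3, with a median of -0.30 against -0.03 over all tested genes. The counting interval excluded 1 for 8 of the 9 genes, the exception being Otx1, as it did for 49.9% of all tested genes and for 58.3% of those that reached 10 CPM. All 9 genes passed the minimum, and their counts ranged from 87 to 2693.

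**Figure D1:**
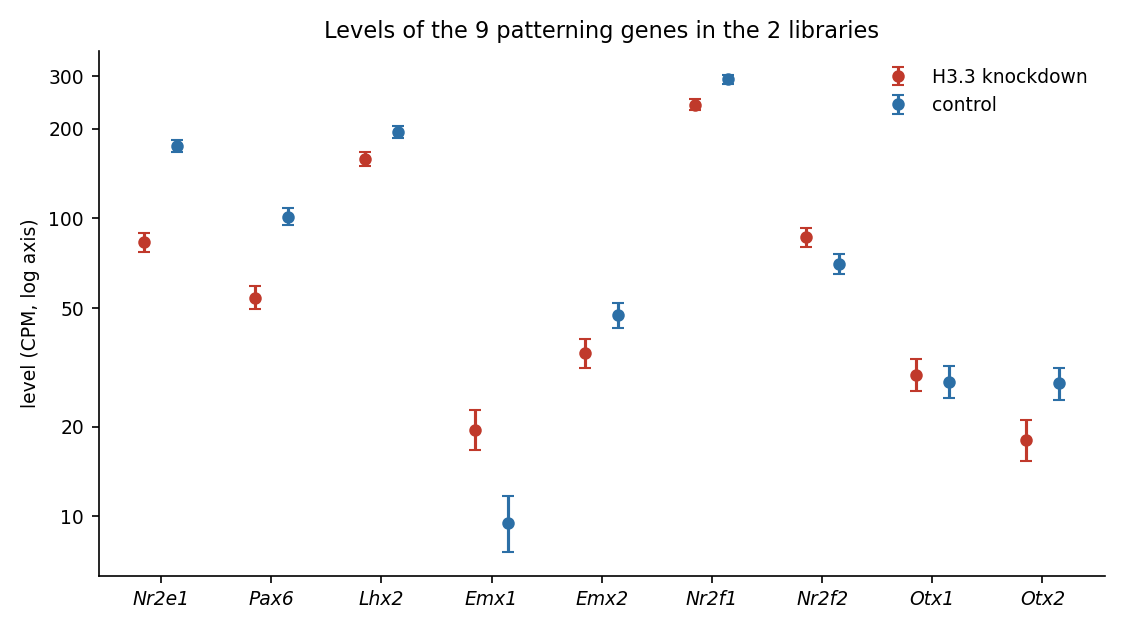
Level of each patterning gene in CPM on a log axis in the H3.3 knockdown library (red) and the control library (blue), 1 library each; bars are exact 95% Poisson intervals of the count. Emx1, Nr2f2 and Otx1 are the genes with the higher point in the H3.3 knockdown library, and Otx1 is the gene whose bars overlap.

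Nr2e1 was the patterning gene with the lowest ratio. It encodes an orphan nuclear receptor that represses cell cycle inhibitors and glial genes in neural stem cells, and it lies at chr10:42561963-42583632 on the minus strand (ENSMUSG00000019803). It had 725 counts in the H3.3 knockdown library and 1608 in the control library, or 83.3 CPM (77.4 to 89.6) and 175 CPM (167 to 184). The 2 intervals are far apart. The knockdown level was 0.476 of the control (0.435 to 0.520), a log2 ratio of -1.07, and 2.24% of tested genes had a lower ratio. In bulk RNA, fewer cells that express a gene and less of its RNA per cell cannot be told apart. The 10 neural stem cell markers other than Nr2e1 and Pax6 summed to 5299 CPM in the knockdown library and 5243 CPM in the control, and none of them passed the rule. Their log2 ratios had a median of -0.12, with 6 below 0 and 4 above, and the abundant Fabp7 had 1385 CPM in the knockdown library and 1044 CPM in the control while Prom1 had 42.6 and 64.7 CPM. Per read of Sox2, a transcription factor of neural progenitors, there were 0.190 reads of Nr2e1 in the knockdown library and 0.335 in the control, a ratio of 0.566 (0.513 to 0.625). Listed cell cycle genes summed to 1253 CPM in the knockdown library and 2568 CPM in the control, with 10 of 16 lower and none higher, and their part in the Nr2e1 difference was not tested.

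Ostm1, which encodes a lysosomal membrane protein, starts 190 bases from Nr2e1 and runs the other way, so the bases between them lie upstream of both. It had 582 counts in the H3.3 knockdown library and 489 in the control, a ratio of 1.26 (1.11 to 1.42) that is short of 2-fold. Reads of Nr2e1 per read of Ostm1 came to 1.25 in the knockdown library and 3.29 in the control, or 0.379 of the control (0.326 to 0.441). The 189 bases that separate both genes, chr10:42583633-42583821 of GRCm38 read on the minus strand towards Nr2e1, are shown because one of the 2 genes was lower and the other was not. The part before the first exon of Pax6, the gene with the next lower ratio, is set below it (chr2:105668646-105668899, plus strand, 254 bases). Both are from RefSeq's promoter windows on GRCm38.p6, cut where an annotated exon begins, and capitals mark TGACGTCA, the full cAMP response element.
Nr2e1 and Ostm1: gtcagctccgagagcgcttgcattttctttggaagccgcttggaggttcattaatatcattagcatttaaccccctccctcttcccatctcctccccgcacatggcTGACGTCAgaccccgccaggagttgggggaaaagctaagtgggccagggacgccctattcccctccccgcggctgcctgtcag
Pax6: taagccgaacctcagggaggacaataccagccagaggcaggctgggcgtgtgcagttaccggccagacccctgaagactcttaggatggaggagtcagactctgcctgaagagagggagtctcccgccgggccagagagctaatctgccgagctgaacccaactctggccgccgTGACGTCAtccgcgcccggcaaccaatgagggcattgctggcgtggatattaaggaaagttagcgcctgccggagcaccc

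The cAMP response element was searched after the sequences had been read. It reads the same on both strands and occurs in 1.79% of 32851 RefSeq windows, each running from 250 bases before to 50 after a start. The 8 patterning genes in that table (Otx1 has no window there) have 14 windows, and Nr2e1 and Pax6 hold the element in 1 window each. A match describes letters, not a bound site. Among tested genes in the table, 390 had the element and 10117 did not. Of those with it 1.54% were higher and 1.54% lower with a median log2 ratio of -0.03, against 3.61%, 2.44% and -0.04 without it. Core motifs of the factors themselves were searched on both strands too. AAGTCA, the half-site of Nr2e1, stands in the full Nr2e1 window, as in 15.1% of all windows. TAATTA, a common homeodomain core, stands in windows of Emx2 and Otx2 (5.29% of all), and TAATCC, the Otx core, in windows of Nr2f2 and Otx2 (7.06% of all). AGGTCA, the half-site of the Nr2f receptors, stands in none of the 8 genes' windows (16.3% of all).

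Pax6 and Lhx2, which specify cortical progenitors, both had lower levels in the H3.3 knockdown library, and neither reached 2-fold. Pax6, a paired-domain homeobox gene that drives cortical neurogenesis (ENSMUSG00000027168, chr2:105668900-105697364, plus strand), had 472 counts in the H3.3 knockdown library and 930 in the control. Its levels were 54.2 CPM (49.5 to 59.4) and 101 CPM (94.9 to 108), which is 0.536 of the control (0.478 to 0.599) and a log2 ratio of -0.90. The interval includes a 2-fold difference, so Pax6 lies just outside the rule and Nr2e1, whose own interval reaches 0.520, just inside it. Nr2e1 and Pax6 did not differ from each other beyond counting error, with 1.54 reads of Nr2e1 per read of Pax6 in the knockdown library and 1.73 in the control (ratio 0.888, 0.770 to 1.03). Lhx2, a LIM-homeodomain selector gene of the cortex (ENSMUSG00000000247, chr2:38339281-38369733, plus strand), had 1377 and 1795 counts in the knockdown and the control library. That is 158 CPM (150 to 167) in the knockdown library and 195 CPM (186 to 205) in the control, a smaller difference than that of Pax6, at 0.810 of the control (0.754 to 0.869).

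**Figure D2:**
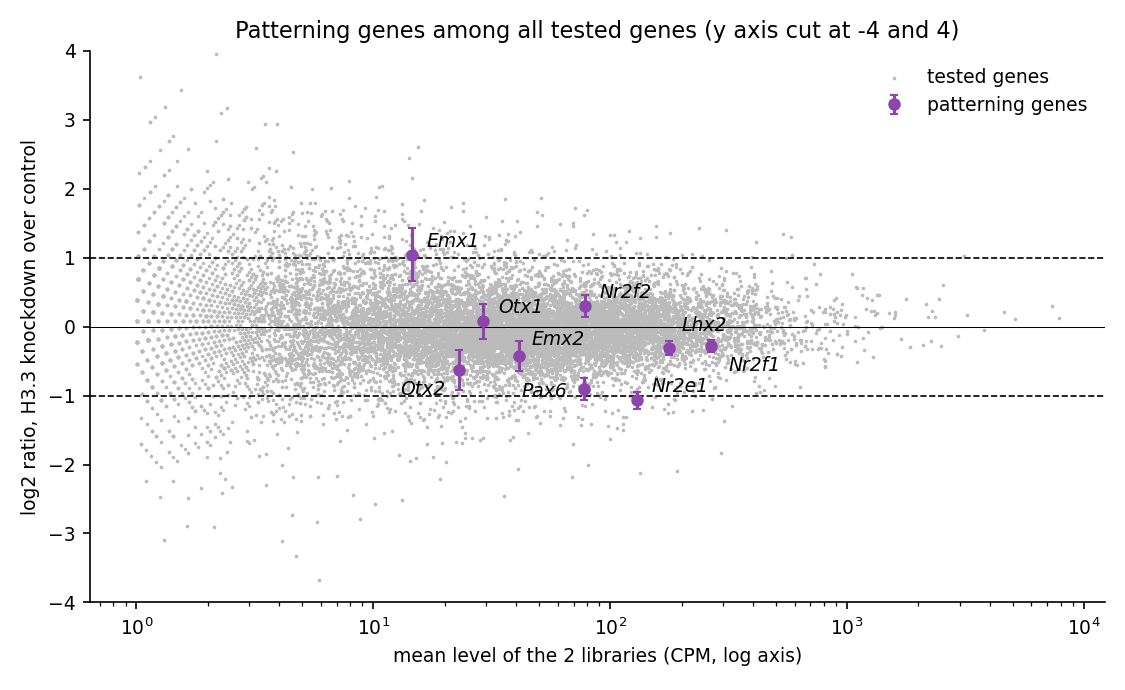
Log2 ratio of H3.3 knockdown over control against the mean level of the 2 libraries in CPM (log axis) for 13989 tested genes (grey, 2 of them beyond the y range) and the patterning genes (purple, with 95% counting intervals); dashed lines mark 2-fold. Nr2e1 at -1.07 and Emx1 at 1.04 lie past the lines, Pax6 at -0.90 just inside, and the other 6 genes nearer to 0.

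The Emx genes, vertebrate relatives of the fly gene empty spiracles, went in opposite directions. Emx1, which is expressed in cortical progenitors and in the excitatory neurons they form (ENSMUSG00000033726, chr6:85187438-85204462, plus strand), had 170 counts in the H3.3 knockdown library and 87 in the control. Its levels were 19.5 CPM (16.7 to 22.7) and 9.47 CPM (7.59 to 11.7), and it rose 2.06-fold (1.58 to 2.70), a log2 ratio of 1.04. It has the fewest control counts of the 9 genes, and the interval reaches well below 2-fold. Emx2, a progenitor gene needed for the hippocampus and caudal cortex (ENSMUSG00000043969, chr19:59458372-59465357, plus strand), had 307 counts in the knockdown library and 435 in the control. At 35.3 CPM (31.4 to 39.5) and 47.4 CPM (43.0 to 52.0), it stood at 0.745 of the control (0.641 to 0.864). Emx1 therefore made up 35.6% of the pair's counts in the knockdown library (31.3 to 40.1, Clopper-Pearson) and 16.7% in the control (13.6 to 20.1). The odds of an Emx1 over an Emx2 read were 2.77 times those of the control (2.04 to 3.77), a value that does not depend on how the libraries are scaled. Both genes together had 477 and 522 counts in the knockdown and control libraries, a ratio of 0.964 (0.850 to 1.09).

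Of the 14 listed neuron markers, 5 passed the rule as higher, as Emx1 did, and none as lower. Their log2 ratios were above 0 for 11 and below 0 for 3, with Syt1 the lowest at -0.77. The sum of the 14 was 7696 CPM in the H3.3 knockdown library and 5584 CPM in the control. Tbr1, a transcription factor of early cortical excitatory neurons, had 1315 counts in the knockdown library and 627 in the control (2.21-fold, 2.01 to 2.44), and Slc17a7, their vesicular glutamate transporter, had 700 and 203. Reads of Emx1 per read of Tbr1 were 0.129 in the knockdown library and 0.139 in the control, a ratio of 0.932 (0.702 to 1.24) for a pair chosen after its values were seen. The part of neuron content in the Emx1 difference was not tested.

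The Nr2f genes, orphan receptors also known as COUP-TFs, differed less, and again in opposite directions. Nr2f1, which gives cortical progenitors their caudal area identity (ENSMUSG00000069171, chr13:78188973-78199757, minus strand), had 2099 counts in the H3.3 knockdown library and 2693 in the control. Its level was 241 CPM (231 to 252) and 293 CPM (282 to 304), or 0.823 of the control (0.777 to 0.871). Nr2f2, which acts in caudal ganglionic eminence interneurons (ENSMUSG00000030551, chr7:70351946-70366735, minus strand), had 752 counts in the knockdown library and 645 in the control. At 86.4 CPM (80.3 to 92.8) and 70.2 CPM (64.9 to 75.9) its ratio was 1.23 (1.11 to 1.37). Neither gene reached 2-fold. Nr2f1 held 73.6% of the pair's counts in the knockdown library (72.0 to 75.2) and 80.7% in the control (79.3 to 82.0), and the odds of an Nr2f1 over an Nr2f2 read were 0.669 of those of the control (0.592 to 0.755). Both genes together stood at 0.901 of the control (0.857 to 0.948).

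The Otx genes, relatives of the fly gene orthodenticle, had nearly equal counts in the control and unequal ones in the H3.3 knockdown library. Otx1, expressed in cortical progenitors and deep-layer neurons (ENSMUSG00000005917, chr11:21994764-22002897, minus strand), had 260 counts in each library, or 29.9 CPM (26.4 to 33.7) in the knockdown library and 28.3 CPM (25.0 to 32.0) in the control, with a ratio of 1.06 (0.885 to 1.26). Otx2 (ENSMUSG00000021848, chr14:48657679-48667644, minus strand) had 157 counts in the knockdown library and 256 in the control, or 18.0 CPM (15.3 to 21.1) and 27.9 CPM (24.6 to 31.5). That is 0.647 of the control (0.527 to 0.793), short of 2-fold. Otx1 took 62.4% of the pair's counts in the knockdown library (57.5 to 67.0) and 50.4% in the control (46.0 to 54.8), with odds 1.63 times those of the control (1.24 to 2.14). Ttr, the transthyretin gene that marks choroid plexus, had 38 counts in the knockdown library and 4 in the control, the opposite direction to Otx2. Of 12 listed choroid plexus markers 9 were in the table and none of these was at 0 in either library, 4 were tested, and Ttr was the 1 that rose. The list without Otx2 summed to 126 CPM in the knockdown library and 94.3 CPM in the control, and Enpp2 had 999 and 827 of the counts. The part of choroid plexus cells in the Otx2 value was not tested.

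**Figure D3:**
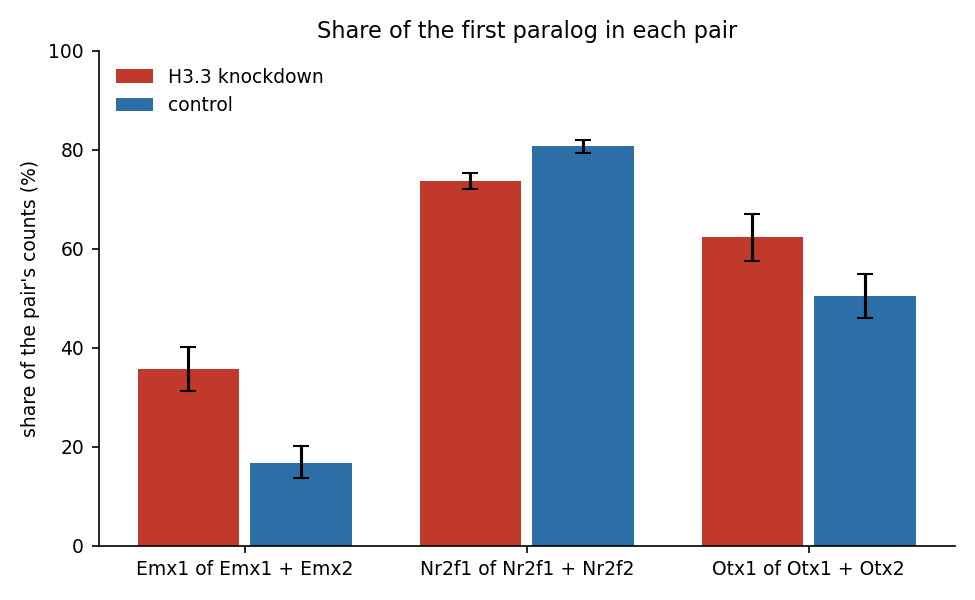
Share of a pair's counts that belongs to its first gene, in percent, in the H3.3 knockdown library (red) and the control library (blue), 1 library each, with exact 95% binomial intervals. The share of Emx1 was 35.6% in the knockdown library and 16.7% in the control, that of Nr2f1 73.6% and 80.7%, and that of Otx1 62.4% and 50.4%.

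How well reads can tell such paralogs apart depends on their sequences. The 90 coding bases in which each pair is most alike are shown here, within 1 coding exon of the GENCODE vM21 transcripts on GRCm38, with capitals where the paralogs differ. The windows are chr6:85194086-85194175 (plus strand) for Emx1, chr19:59461710-59461799 (plus) for Emx2, chr13:78198253-78198342 (minus) for Nr2f1, chr7:70360021-70360110 (minus) for Nr2f2, chr11:21998387-21998476 (minus) for Otx1 and chr14:48661316-48661405 (minus) for Otx2.
Emx1: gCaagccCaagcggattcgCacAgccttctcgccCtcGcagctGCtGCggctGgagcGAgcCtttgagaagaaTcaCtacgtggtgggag
Emx2: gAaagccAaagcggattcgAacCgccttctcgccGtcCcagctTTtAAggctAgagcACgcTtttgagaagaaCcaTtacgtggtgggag
Nr2f1: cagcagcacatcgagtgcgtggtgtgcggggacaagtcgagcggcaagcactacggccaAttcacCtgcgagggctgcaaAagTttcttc
Nr2f2: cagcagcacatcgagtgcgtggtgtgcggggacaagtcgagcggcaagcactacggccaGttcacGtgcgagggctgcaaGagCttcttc
Otx1: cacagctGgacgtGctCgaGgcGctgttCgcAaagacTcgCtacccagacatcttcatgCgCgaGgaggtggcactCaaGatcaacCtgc
Otx2: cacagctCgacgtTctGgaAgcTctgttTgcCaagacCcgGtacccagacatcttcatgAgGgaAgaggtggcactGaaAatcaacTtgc

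The Emx windows differ at 16 of 90 bases, the Otx windows at 15 and the Nr2f windows at 4. Over the aligned coding sequence the pairs were 71.4%, 75.2% and 83.3% identical in the same order. The longest run shared by both coding sequences was 14 bases for Emx1 and Emx2, 18 for Otx1 and Otx2 and 59 for Nr2f1 and Nr2f2. Read length was not given. No 50-base stretch of the main Emx or Otx transcripts occurred in the paralog, and 10 such stretches, of 3158 in Nr2f1 and 4173 in Nr2f2, were common to the Nr2f pair. Some antisense genes overlap the spans of these genes. Without a stated strand setting, reads from exonic sequence that both genes share cannot be told apart. No 50-base stretch of the main Pax6 or Lhx2 transcript occurred in another gene. Emx2os shares 215 of the 2867 stretches of 50 bases in Emx2 and had 13 counts in the H3.3 knockdown library and 20 in the control. A830082K12Rik, whose span including introns overlaps that of Nr2f1 over 1741 bases, had 420 counts in the knockdown library and 452 in the control (ratio 0.981, 0.857 to 1.12). Of the 3158 stretches of 50 bases in Nr2f1, 66 occurred in A830082K12Rik or Nr2f2. The antisense genes that overlap Pax6 and Nr2f2 had at most 10 counts in either library, with 3 and 4 for Pax6os1 and 4 and 10 for B130024G19Rik. Gm27197 and Gm13584, opposite to Lhx2, had 4 and 2 counts in the knockdown library and 7 and 1 in the control.

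Levels can be compared between genes only per length. Divided by the kilobases of all annotated exons, Nr2f1 was the highest of the 9 in both libraries, at 47.4 CPM per kb in the H3.3 knockdown library and 57.6 in the control. Nr2e1 was at 22.4 CPM per kb in the knockdown library, below Lhx2 at 36.0. In the control Nr2e1 at 47.2 CPM per kb and Lhx2 at 44.5 had overlapping intervals. Emx1 was the lowest of the 9 in the control by this length, at 4.34 CPM per kb, and its interval overlapped that of Otx1 at 5.22. In the knockdown library Emx1 stood at 8.94 CPM per kb, above Otx1 at 5.51, Pax6 at 4.64 and Otx2 at 4.27 and next to Nr2f2, whose interval it overlapped. Several of these places depended on the length used. Per kb of the longest transcript, Nr2f1 was again the highest in both libraries. Nr2e1 was then below Lhx2 in both, at 25.4 against 55.7 CPM per kb in the knockdown library and 53.3 against 68.8 in the control. Otx1, not Emx1, was the lowest in the control, at 5.37 against 6.07 CPM per kb for Emx1. Pax6, whose isoforms span 11694 exonic bases, held 12.3 CPM per kb of its longest transcript in the knockdown library, close to Emx1 at 12.5 and Emx2 at 12.1, and 22.9 in the control, above Emx2 at 16.2.

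Among genes that work with these factors, none of 32 listed cofactors passed the rule, against 6.36% of all tested genes. Their median log2 ratio was -0.11. Whether this list or those below were called more or less often than other genes was not tested. Ldb1, which bridges Lhx2 to its partners, had 0.774 of the control level (0.727 to 0.824). Tle1 and Tle3, Groucho corepressors, had log2 ratios of -0.81 and -0.83, and the homeodomain partner Meis2 had -0.65. Of 10 genes reported as targets of Pax6, 2 fell and none rose, with a median of -0.27. Eomes, a factor of intermediate progenitors, was among those that fell, with 158 counts in the H3.3 knockdown library and 524 in the control. Neurog2, the proneural gene that Pax6 activates, had 0.899 of the control level (0.758 to 1.06), and the radial glial gene Fabp7 1.33 (1.29 to 1.36). Of 9 genes reported as targets of Nr2e1, 1 rose and 2 fell. Cdkn1a, which encodes the cell cycle inhibitor p21 and is repressed by Nr2e1, had 684 counts in the knockdown library and 325 in the control (2.22-fold, 1.94 to 2.54). The part of Nr2e1 in the Cdkn1a value was not tested, nor that of Pax6 in the values of its reported targets. The glial genes S100b and Gfap had 7 and 336 counts in the knockdown library and 68 and 705 in the control. Aqp4, the glial water channel gene of the same list, had 573 counts in the knockdown library and 503 in the control (1.20, 1.06 to 1.36). Of these 3 glial genes, S100b passed the rule. Oligodendrocyte markers, of a lineage that also expresses S100b, summed to 623 CPM in the knockdown library and 1084 CPM in the control. By the rule, 7 of 10 were lower and 1 higher, and their part in the S100b value was not tested.

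Of 24 other telencephalic patterning factors tested, 1 rose and 5 fell, against 3.82% and 2.54% of all tested genes. The median log2 ratio of the 24 was -0.21. Tbr1 was the one that rose. Zbtb20, a factor of hippocampal identity, fell to 0.451 of the control (0.426 to 0.477), Pou3f2 to 0.443 (0.405 to 0.485) and Gli3, needed for the dorsal telencephalon, to 0.456 (0.406 to 0.513). Sp8 was also lower, at a log2 ratio of -1.15. The cortical progenitor gene Dmrta2 stood at 0.876 (0.741 to 1.03). Of 18 ventral factors 9 fell and none rose by the rule, with a median of -1.09 and 4 log2 ratios above 0. Gsx2, which opposes Pax6 at the border of both domains, had 72 counts in the knockdown library and 297 in the control, and Dlx2 had 631 and 2842. Gsx2 stood at 0.256 of the control (0.195 to 0.332), and this interval does not overlap that of Pax6.

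**Figure D4:**
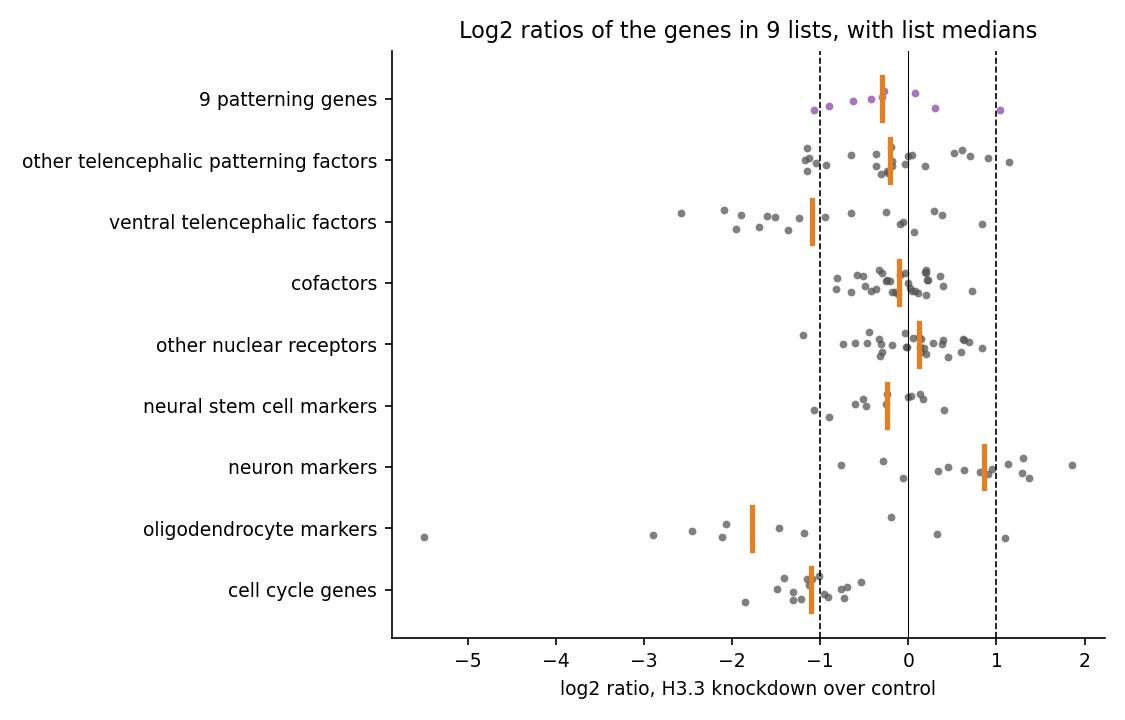
Log2 ratio of H3.3 knockdown over control for the tested genes of 9 lists, 1 point a gene, with the list's median as an orange bar and 2-fold as dashed lines; vertical scatter within a row has no meaning. The patterning genes (median -0.30) span -1.07 to 1.04, the other patterning factors -1.17 to 1.15, while ventral factors have a median of -1.09 and neuron markers 0.86.

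The 9 genes belong to large families. The deposited table assigns 56 tested genes, among them Emx1, Emx2, Lhx2 and Otx1, to the homeobox family by Pfam, a catalogue of protein domains. Of these 9 were higher and 9 lower, and the median log2 ratio was -0.06. Among 31 tested nuclear receptor genes by the same annotation none was higher and 2 were lower, Nr2e1 and Esrrg, the estrogen-related receptor gamma gene, which had 92 counts in the H3.3 knockdown library and 223 in the control (0.435, 0.338 to 0.558). The median of these 31 was 0.05. The authors' deposited table marks 1081 of its 18510 genes as differential. Among these are 2 of the 9 patterning genes, Nr2e1 with a log2 fold change of -1.07 and Emx1 with 1.04. These fold changes come from the same 2 libraries' counts, so they are not an independent check.

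With 2 libraries the pattern of a gene is a single ratio, so likeness in pattern was measured as the difference in log2 ratio. Among genes of the other lists that reached 10 CPM, the nearest to Nr2e1 were the mitotic kinase gene Aurkb (-1.09) and the mesenchymal factor gene Prrx1 (-1.05). The nearest to Emx1 were the growth factor gene Nrg3 (1.06) and the neurofilament gene Nefm (1.13). As many as 164 tested genes lay within 0.1 of Nr2e1 and 257 within 0.1 of Emx1, so many genes share either ratio.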

How the data were processed

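Polyadenylated RNA was enriched with oligo(dT) from 2 µg of total RNA and reverse transcribed with random primers, per the labels' protocols. HTSeq 0.6.0, TopHat2 2.0.12 and Bowtie 1.0.1 appear in the submitters' processing notes, without settings, and the genome build, strandedness and knockdown sequence were not given in the sources used here. Deposited counts are whole, unnormalized reads per gene, per the file headers. The deposited CPM columns are the authors' counts divided by 1 constant per library. The authors' fold change is the ratio of these, with its log2 value beside it, and the test behind the deposited p-values is not named; they were not used.

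Symbols were matched for 18423 of 18510 Ensembl IDs, and 1 further row is not analysed here. Positions are as deposited; 7 of the 9 equal those of GENCODE vM21 (GRCm38) and the other 2 differ. Counts were scaled to the column total. Ratios carry exact Clopper-Pearson intervals conditional on the sum of both counts, and paralog balances the exact conditional interval of the odds ratio (scipy 1.17.1). The intervals cover counting error only. They treat reads as independent, which reads amplified by PCR are not, so they can be too narrow even for counting error. The genes and all gene lists were chosen with earlier results of these data known. The text names the 9 genes, H3f3a, H3f3b, Sox2 and Ttr, up to 4 genes per list past the size rule (or otherwise its 2 most abundant), overlapping genes and genes starting within 10 kb. Other list genes named (such as Tle1, Meis2, Neurog2 and Sp8) were chosen after their values were seen. The size rule was tested on simulated Poisson counts. These hold counting error only, so the simulation cannot check the rule against variation between cultures. Alternatives used TMM (edgeR 4.0.16), DESeq2 1.42.0 size factors and other scalings, filters and added counts. Some genes that the lists hold are not reported here by name.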

Additional observations from a re-analysis of the deposited data

How the results depend on the processing

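The log2 ratio of each of the 9 genes, the number of them past the size rule and their median kept their direction and their side of the rule under the 11 alternatives run (TMM, DESeq2 size factors, upper-quartile scaling, totals without the 100 most abundant or the mitochondrially encoded genes, scaling to neural stem cell markers, no or 5 counts added, a minimum of 10 CPM or none, and a length and GC correction). A minimum of 10 CPM or none could not change these values, since all 9 genes pass either. The log2 ratio ranged from -1.09 to -1.01 for Nr2e1, from 1.01 to 1.11 for Emx1 and from -0.92 to -0.83 for Pax6. The median of the 9 genes ranged from -0.32 to -0.22. The 3 paralog balances kept their direction when recomputed with 5 counts added. Recomputing them with no count added repeats the main values, which have none added. The pair ratios were not recomputed. Nr2e1 and Emx1 stayed near the 2-fold line. The number of all tested genes past the rule moved more, with 535 higher and 355 lower at a minimum of 1 CPM and 169 and 174 at 10 CPM. No paired analysis was possible because each group has 1 library, and no library could be left out. Variation between cultures is unknown, and 87 counts of Emx1 in the control set the widest interval among the 9 genes.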

Other observations

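Among 9 tested LIM and Pax homeobox paralogs, relatives of Lhx2 and Pax6, 2 were higher and none lower, with a median log2 ratio of 0.61. Over all tested genes 3.82% were higher and 2.54% lower, with a median of -0.03. Lhx1, a LIM-homeodomain gene of early-born neurons, had 82 counts in the H3.3 knockdown library and 29 in the control (2.98-fold, 1.93 to 4.73). Pax5, a midbrain-hindbrain border gene, had 19 and 7 counts (2.86-fold, 1.15 to 8.06).

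Genes for the signals that position these factors went both ways, with 3 of 20 tested higher and 3 lower. The shares over all tested genes were 3.82% and 2.54%. Fgf18 had 53 counts in the H3.3 knockdown library and 11 in the control (5.08-fold, 2.63 to 10.8), and Bmp7 had 235 and 113 (2.19-fold, 1.75 to 2.77). Bmp4, a signal of the dorsal midline, had 12 counts in the knockdown library and 94 in the control (0.135 of the control, 0.0672 to 0.247), and Fgf15 had 4 and 26.

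Astrocyte markers summed to 1192 CPM in the H3.3 knockdown library and 1131 CPM in the control (1 of 7 lower, none higher), mesenchyme markers to 59.6 and 71.3 CPM (3 of 5 higher, 2 lower), endothelial markers to 13.3 and 7.08 CPM (1 of 3 higher) and microglia markers to 6.09 and 3.48 CPM (1 of 3 higher).

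Of the 36 pairs that can be formed among the 9 patterning genes, 27 had ratios whose counting intervals did not overlap. The share among pairs of all tested genes was not computed, so this count cannot be read as particular to the 9 genes. For single genes, the interval excluded 1 for 58.3% of those that reached 10 CPM.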
